A study of Mus musculus with 2 samples.

Results

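Nuclear genes for the enzymes of oxidative phosphorylation were read in DNase-seq of the left cerebral cortex of adult mice. Members were all protein-coding genes of the GENCODE annotation on chromosomes 1 to 19 whose symbol begins with Nduf, Uqcr, Atp5, Cox4, Cox5, Cox6, Cox7 or Cox8, together with Sdha, Sdhb, Sdhc, Sdhd and Cyc1. The rule uses names alone and gave 92 gene entries out of 20807, or 91 distinct symbols, because Atp5o is annotated once as a short gene and once as a long entry that reaches over its neighbours. By textbook role the entries were 34 subunits of complex I, 8 complex I assembly factors, 4 subunits of complex II, 9 of complex III, 19 genes of complex IV, 17 of complex V and Atp5s, which shares the prefix and is not a structural subunit.

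The series held 2 libraries and 1 group. Both came from female B6CASTF1/J mice aged 2 months, which are F1 offspring of a cross between the strains C57BL/6J and CAST/EiJ; the labels name no treatment. The labels number the females separately and call the libraries biological replicates 1 and 2, but enter the same donor record for each, so the spread between them may be smaller than that between unrelated animals. With 1 group there was no condition to compare, and every value below is a description without a test. DNase I cuts chromatin where DNA is not packed into nucleosomes; peaks of cut density mark accessible sites, and a footprint is a short protected stretch inside such a site. Cortex is a mixture of neurons, glia and vessel cells, so a site wide open in few cells and a site weakly open in many cannot be told apart.

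The respiratory chain passes electrons from NADH through complex I, or from succinate through complex II, to complex III, cytochrome c and complex IV, and complex V uses the resulting proton gradient to make ATP. Most of its subunits are encoded in the nucleus and a few in mitochondrial DNA, so the promoters of many scattered genes have to be used together. Factors known from textbook work to act at such promoters are NRF1, ETS factors of the GABP type, YY1, SP factors and, where energy demand is high, the estrogen-related receptors (ERR) with the coactivator encoded by Ppargc1a. Neurons depend heavily on oxidative phosphorylation.

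Stretches of 9 promoters are shown because they carry the footprints and motif matches described later, with at least 1 gene from each complex, and a promoter without a shared footprint, Cox6a2, is set beside them; replicate 2 alone had 2 footprints in its window. Each runs 5′ to 3′ along the gene's own strand and contains the annotated 5′ end, from which positions are counted as 0. Capitals mark bases that lay inside a footprint in both libraries. The letters are those of the reference assembly GRCm38.p6, which is C57BL/6J sequence; the CAST/EiJ copy was not analysed here. The assembly factor genes were Ndufaf4 (chr4:24897923-24898103, plus strand) and Ndufaf8 (chr11:120098768-120098957, plus strand).
Ndufaf4: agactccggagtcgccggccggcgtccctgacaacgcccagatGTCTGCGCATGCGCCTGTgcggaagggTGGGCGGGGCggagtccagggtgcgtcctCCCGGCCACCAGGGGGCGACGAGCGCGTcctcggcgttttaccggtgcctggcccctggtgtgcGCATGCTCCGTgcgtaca
Ndufaf8: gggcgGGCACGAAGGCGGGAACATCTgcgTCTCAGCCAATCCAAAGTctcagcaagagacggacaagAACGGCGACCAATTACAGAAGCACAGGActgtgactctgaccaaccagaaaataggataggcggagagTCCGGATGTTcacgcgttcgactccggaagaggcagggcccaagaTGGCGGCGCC
The accessory subunit genes of complex I were Ndufs5 (chr4:123718182-123718362, minus strand) and Ndufa11 (chr17:56717657-56717787, plus strand).
Ndufs5: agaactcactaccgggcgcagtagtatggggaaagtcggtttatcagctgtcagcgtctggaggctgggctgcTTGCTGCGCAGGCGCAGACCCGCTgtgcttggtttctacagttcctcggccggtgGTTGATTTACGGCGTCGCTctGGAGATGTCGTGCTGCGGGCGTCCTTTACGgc
Ndufa11: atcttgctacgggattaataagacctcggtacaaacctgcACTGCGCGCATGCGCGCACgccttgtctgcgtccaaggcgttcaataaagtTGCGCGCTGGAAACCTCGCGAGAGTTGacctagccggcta
Complex II was represented by Sdhd (chr9:50603792-50603937, minus strand) and complex III by Uqcr11 (chr10:80406801-80406990, minus strand).
Sdhd: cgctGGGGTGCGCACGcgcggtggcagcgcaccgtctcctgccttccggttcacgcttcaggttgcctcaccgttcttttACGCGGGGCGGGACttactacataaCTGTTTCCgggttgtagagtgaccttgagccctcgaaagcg
Uqcr11: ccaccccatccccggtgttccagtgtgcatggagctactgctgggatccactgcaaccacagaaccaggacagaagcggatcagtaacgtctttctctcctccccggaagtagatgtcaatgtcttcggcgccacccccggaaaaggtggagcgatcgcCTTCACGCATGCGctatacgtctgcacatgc
From complexes IV and V came Cox6a1 (chr5:115348961-115349141, minus strand), Atp5g3 (chr2:73911297-73911486, minus strand) and Atp5mpl (chr12:111966957-111967137, minus strand).
Cox6a1: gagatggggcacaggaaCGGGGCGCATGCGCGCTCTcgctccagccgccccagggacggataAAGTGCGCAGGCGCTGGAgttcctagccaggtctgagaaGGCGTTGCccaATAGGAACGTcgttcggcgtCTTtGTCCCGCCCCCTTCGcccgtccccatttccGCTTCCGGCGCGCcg
Atp5g3: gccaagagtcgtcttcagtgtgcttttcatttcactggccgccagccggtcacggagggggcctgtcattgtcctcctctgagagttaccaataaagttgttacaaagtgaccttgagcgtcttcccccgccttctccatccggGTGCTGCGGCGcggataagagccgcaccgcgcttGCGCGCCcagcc
Atp5mpl: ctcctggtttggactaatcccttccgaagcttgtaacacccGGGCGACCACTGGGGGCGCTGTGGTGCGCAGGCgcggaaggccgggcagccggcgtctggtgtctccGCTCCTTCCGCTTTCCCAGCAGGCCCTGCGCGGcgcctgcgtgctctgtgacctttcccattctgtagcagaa
The contrast was Cox6a2, the striated-muscle counterpart of Cox6a1 (chr7:128206367-128206547, minus strand).
Cox6a2: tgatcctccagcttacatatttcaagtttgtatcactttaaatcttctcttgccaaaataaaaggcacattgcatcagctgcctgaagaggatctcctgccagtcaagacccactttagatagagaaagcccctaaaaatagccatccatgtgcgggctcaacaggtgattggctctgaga
In Ndufaf4 the run GCGCATGCGC at -113 to -104, an NRF1 match read on both strands, lay wholly inside a footprint, and the same letters did so in Ndufa11 at -65 to -56 and in Cox6a1 at -139 to -130. Cox6a1 held a further NRF1 match at -94 to -86 and an ETS match at 7 to 13, both wholly in capitals. In Ndufaf8 the NF-Y match CCAATTA at -85 to -79 was wholly footprinted. In Sdhd and Atp5g3 the ERR match, which reads tgaccttga on the gene's strand, stayed in lower case at -1 to 7 and at -52 to -44. The Cox6a2 stretch had no base in a footprint of both libraries.

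Accessible promoters were the rule among members. A promoter was taken as 500 bp on either side of the outermost annotated 5′ end, and a peak counted as shared when overlapping peaks of both libraries, merged, reached it. Of the 92 entries 83 (90.2%) had a shared promoter peak, against a background of 60.1% of all protein-coding genes on the same chromosomes. Most of the other genes without such a peak have CpG-poor promoters: among promoters with a CpG observed to expected ratio of 0.6 or more, the background was 95.6%, and 73 of 73 such members had a shared peak. Members had a median CpG ratio of 0.72, and all genes 0.57.

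The promoters that were open were also tall. Signal is the height of the cut density in the authors' depth-scaled units, read as the highest peak in the promoter window of each library. Over the 82 members with a shared peak and a value in each library the median was 3.88 in replicate 1 and 4.63 in replicate 2, which is 4.26 ± 0.53 (SD, n = 2). The same over 12453 genes was 2.87 and 3.12. Of the 82 members 62 lay above the median of all such promoters, 38 above percentile 75 and 11 above percentile 90, whereas 5 lay below percentile 25. The CpG-rich genes as a whole had a median mean signal of 3.53, between the 3 of all genes and the 4.3 of members. Replicate 2 was higher in 66 of 82 members (80.5%), and in 67.6% of all genes, so levels are given per replicate and small differences between genes are not read.

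**Figure D1:**
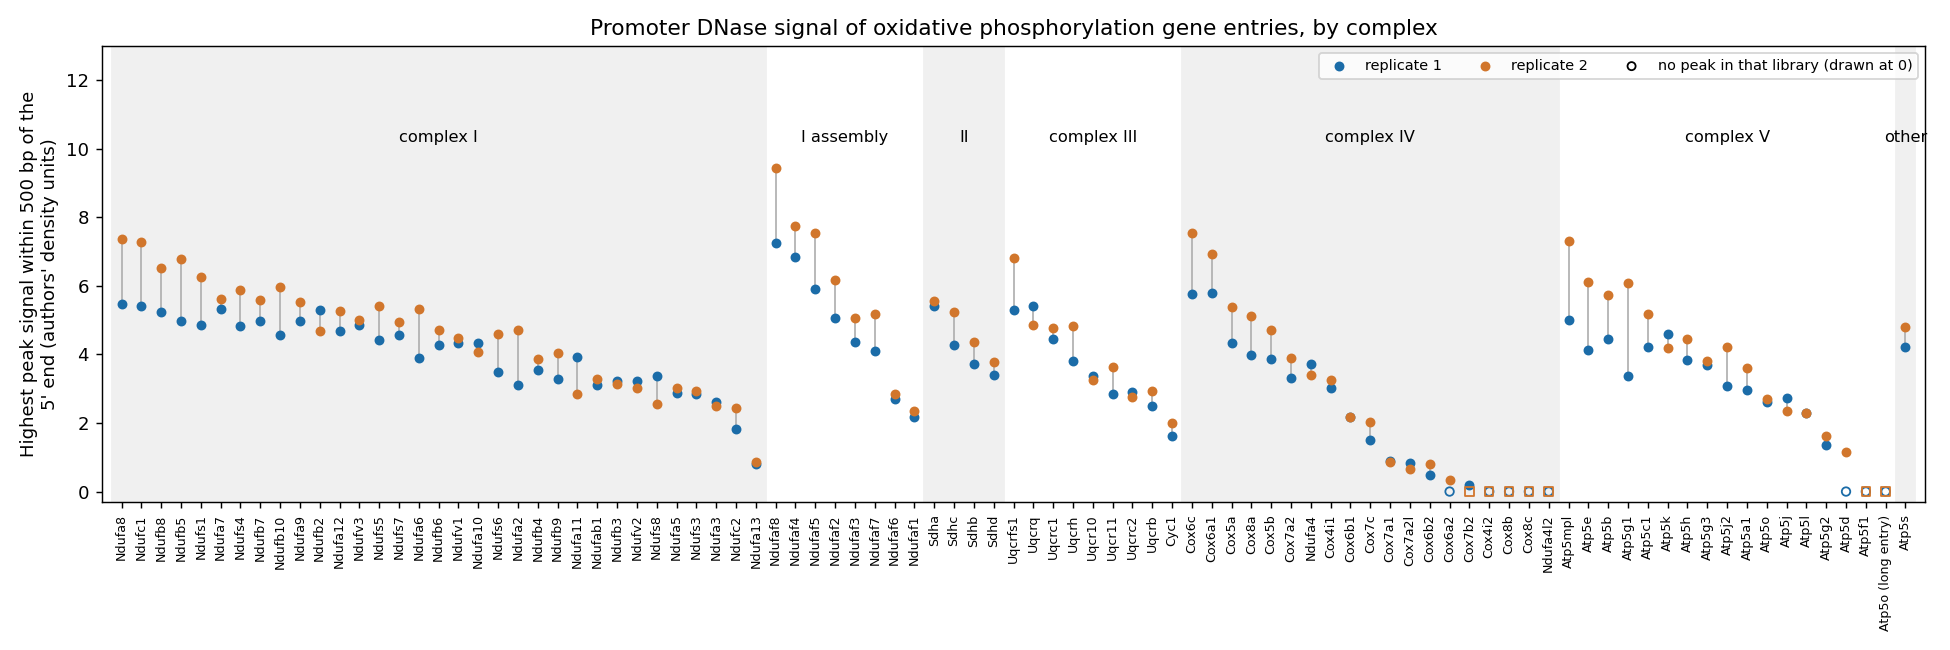
Highest promoter peak signal of 91 of the 92 entries (vertical axis, authors' depth-scaled density units) in replicate 1 (blue) and replicate 2 (orange), grouped by complex and sorted by mean within a group; grey lines join the replicates and open symbols at 0 stand for no peak in that library. The assembly factors of complex I reach highest, up to 7.25 and 9.44 in Ndufaf8, and the entries without peaks sit mostly in complex IV.

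**Figure D2:**
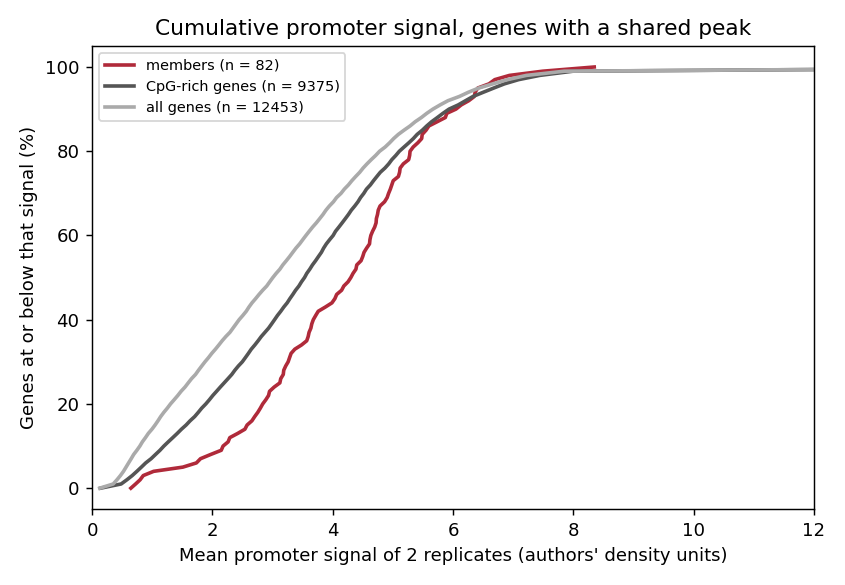
Cumulative percent of genes (vertical axis) at or below a mean promoter signal of both replicates (horizontal axis, authors' density units, shown up to 12), for members, for all protein-coding genes and for genes with CpG-rich promoters, each with a shared promoter peak. The member curve lies to the right of the others over most of the range, with 11 of 82 members above percentile 90 of all genes. Near the top it crosses to their left, from 94% for CpG-rich genes and from 95% for all genes. The highest member mean is 8.35, and the highest of all genes 18.3.

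Complex I, which oxidises NADH, had a shared promoter peak in 33 of 34 genes, with a median signal of 4.32 in replicate 1 and 4.7 in replicate 2. Among the tallest, with overlapping values, were the accessory subunit genes Ndufa8 at 5.46 and 7.36, Ndufc1 at 5.41 and 7.29, Ndufb8 at 5.25 and 6.51 and Ndufb5 at 4.97 and 6.77. Ndufs1, the largest core subunit, which carries iron-sulfur clusters, was at 4.87 and 6.26, and Ndufv1, which holds the NADH-binding site, at 4.32 and 4.48. The lowest with a shared peak was Ndufa13, an accessory subunit also known as GRIM-19, at 0.814 and 0.85. Its 2 values were close together and far below those of Ndufa8, so the order of these genes is larger than the difference between libraries.

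The assembly factors, which help build complex I and do not stay in it, included the 3 tallest member promoters by mean. The values of all 3 overlapped those of Cox6c. Ndufaf8 had 7.25 and 9.44, Ndufaf4 6.84 and 7.74, and Ndufaf5, which hydroxylates a core subunit, 5.91 and 7.53. Ndufaf8 lay at percentile 99.5 of all promoters with a shared peak and Ndufaf4 at percentile 98.1. The group was not uniform: Ndufaf1 had 2.17 and 2.36 and Ndufaf6 2.7 and 2.86. All 8 had a shared peak, with medians of 4.72 and 5.68. A list of 7 other complex I assembly genes, among them Acad9, Foxred1 and Tmem126b, likewise had 7 of 7 shared peaks and medians of 4.36 and 4.85.

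Complex II, or succinate dehydrogenase, links the tricarboxylic acid cycle to the chain, and all 4 of its genes had a shared peak. Sdha, the flavoprotein, was highest at 5.4 and 5.57. Sdhb, the iron-sulfur subunit, had 3.71 and 4.36, and the membrane anchors Sdhc and Sdhd had 4.27 and 5.23, and 3.41 and 3.77. Sdhd was the lowest of the 4 in both replicates, although its values overlapped those of Sdhb.

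Complex III, which hands electrons from ubiquinol to cytochrome c, had shared peaks in 9 of 9 genes but lower medians, 3.38 and 3.64. Its Rieske iron-sulfur protein gene Uqcrfs1 stood at 5.31 and 6.82, the highest of the complex by mean. The gene of the other electron-carrying subunit encoded in the nucleus, Cyc1 (cytochrome c1), was the lowest at 1.62 and 2.01. These nuclear catalytic genes of 1 complex were therefore at opposite ends of its range, without overlap between replicates.

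Complex IV, cytochrome c oxidase, divided by isoform. Several of its subunits come in a form used in most tissues and a form used mainly in striated muscle, lung, smooth muscle or testis. All 10 genes of common subunits had a shared promoter peak, with median signals of 3.78 and 4.3. Of 8 genes of tissue isoforms 2 did, Cox6b2 and Cox7a1. The background was 60.1% of all genes (12513 of 20807) and 95.6% of CpG-rich ones (9392 of 9822), so it was far lower among CpG-poor genes. The median CpG ratio was 0.79 in the common genes and 0.33 in the tissue isoform genes. Every common gene was at 0.6 or more, and the tissue isoform genes lay between 0.19 and 0.47. The 2 of 8 therefore stands beside the lower share of CpG-poor genes. The part of CpG content in this division was not tested. The tallest were Cox6c at 5.77 and 7.54 and Cox6a1 at 5.8 and 6.92, whose order turned between replicates. Cox4i1 and Cox5a, subunits that bind the catalytic core early in assembly, had 3.01 and 3.25, and 4.32 and 5.39. Cox7c was the lowest common subunit at 1.51 and 2.03.

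Within each isoform set of complex IV the common gene had the taller promoter. Cox4i1 had a peak in each library, and Cox4i2, the lung form, had none. Cox6a1 reached 5.8 and 6.92, whereas the muscle form Cox6a2 had a peak of 0.341 in replicate 2 alone. For Cox6b1 the values were 2.17 and 2.17, and for the testis form Cox6b2 0.494 and 0.792. Cox7a2 had 3.32 and 3.89, and the muscle form Cox7a1 0.891 and 0.855. Cox8a had 3.99 and 5.11, with no promoter peak in Cox8b, the muscle form, or in Cox8c, the testis form. Cox7b2, a testis form, had a peak of 0.179 in replicate 1 alone; its common counterpart lies on the X chromosome and is outside the rule. In each set with both forms on these chromosomes the ranges of the forms did not overlap.

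Ndufa4, once assigned to complex I and now counted with complex IV, had 3.71 and 3.4. Its hypoxia-inducible relative Ndufa4l2 had no promoter peak but 6 shared distal peaks within 10 kb, which is dealt with further on. The supercomplex factor gene Cox7a2l had 0.833 and 0.648 at its outermost 5′ end. Complex V uses a different kind of isoform set: Atp5g1, Atp5g2 and Atp5g3 encode the same mature c subunit with different import signals. All 3 were accessible, Atp5g1 at 3.38 and 6.07, Atp5g3 at 3.7 and 3.81 and Atp5g2 at 1.37 and 1.62.

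**Figure D3:**
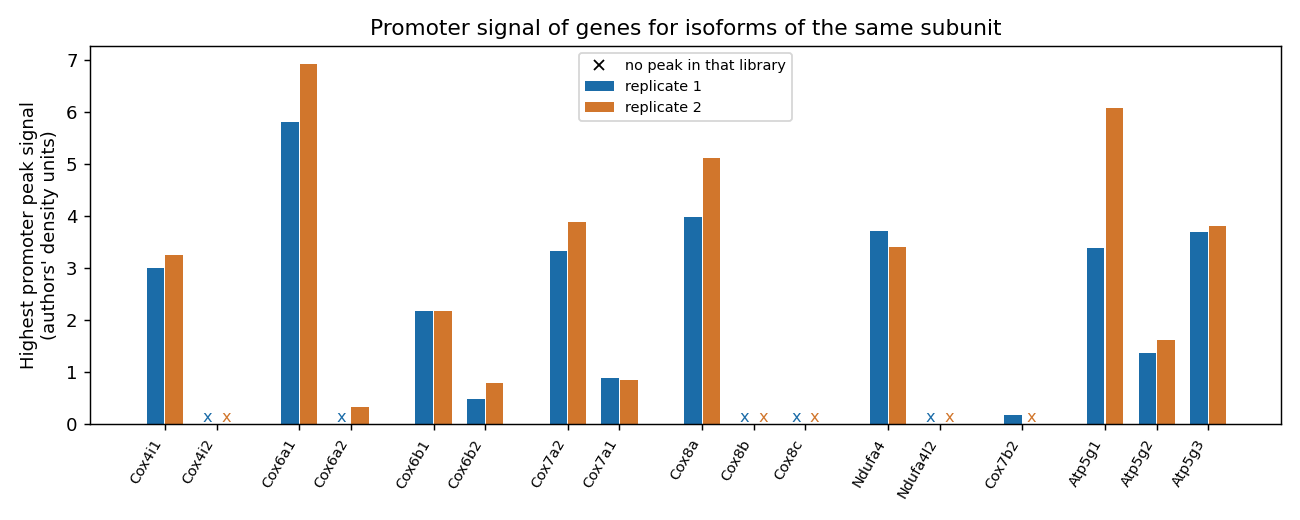
Promoter signal (vertical axis, authors' density units) in replicate 1 (blue) and replicate 2 (orange) for genes that encode forms of the same subunit; a cross stands for no peak in that library. In the complex IV sets the form used in most tissues has the taller bars, and the tissue forms lie between no peak and 0.891, whereas the 3 Atp5g genes all have peaks.

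Complex V, the ATP synthase, had shared peaks in 15 of 17 entries and medians of 3.54 and 4.19. Among the catalytic F1 genes Atp5b, the beta subunit, had 4.46 and 5.73 and Atp5a1, the alpha subunit, 2.96 and 3.6. The tallest by mean was Atp5mpl, a small associated subunit, at 5.01 and 7.31. The lowest with values in both libraries was Atp5g2. Atp5g1, with a 1.8-fold difference between replicates, was the least repeatable of all 82 members; next came Cox6b2 at 1.6-fold, Ndufa2 at 1.52-fold, Atp5e at 1.48-fold and Atp5mpl at 1.46-fold, each higher in replicate 2.

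Of the 9 entries with no shared promoter peak, 7 had none at any annotated start. Those were the isoform genes Cox4i2, Cox6a2, Cox7b2, Cox8b, Cox8c and Ndufa4l2 and the long entry of Atp5o, whose short entry had 2.62 and 2.7. Atp5f1, the peripheral stalk b subunit (chr3:105942698-105960099), had no peak at its outermost end, but 4.18 and 3.74 at starts 823 to 853 bp downstream. Counting any annotated start gave 85 of 92 entries against a background of 65.6%.

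Some low values likewise stood beside higher ones at internal starts. Atp5d, the F1 delta subunit, was counted as shared through a merged peak, but at its outermost end only replicate 2 had a peak of its own, 1.14; at a start 2825 bp downstream it had 4.96 and 7.13. Cox7a2l, at 0.833 and 0.648 at its outermost end, had 3.15 and 3.15 at a start 3000 bp downstream. Atp5g2 had 6.1 and 4.98 at a start 1225 bp downstream, above both replicates of Atp5g3. The levels of Atp5d, Cox7a2l and Atp5g2 depend on which start is read.

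Open member promoters were narrower than those of all genes. Where a peak was shared, shared peaks covered a median of 260 bp of the 1 kb window in members and 376 bp in all genes. Members were not alone in this. The median was 280 bp in genes for cytosolic ribosomal proteins and 276 bp in proteasome genes. In genes of the tricarboxylic acid cycle and in CpG-rich genes it was 380 bp. Most peaks lay at the start itself. In 68 of 82 members the tallest peak was centred within 150 bp of the 5′ end in each library. Over all genes the share was smaller, 7946 of 12453. At the broad end were Atp5g2 with 921 bp, Cyc1 with 783 bp and Atp5l with 762 bp.

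Members were often arranged head to head with another gene. Of the 92, 22 (23.9%) had the 5′ end of a protein-coding gene on the opposite strand within 1 kb upstream, against a background of 6.96%. Among CpG-rich genes the share was 12.5%. Members were not alone in this either. The share was 25% in 12 genes of the tricarboxylic acid cycle and 17.2% in 29 assembly genes for complexes II to V. In proteasome genes it was 14.3%, and in genes for cytosolic ribosomal proteins 10.3%. The distance ran from 10 to 336 bp with a median of 104 bp. Partners included Rps28 beside Ndufa7 at 10 bp, Ccdc127 beside Sdha at 29 bp, Esf1 beside Ndufaf5 at 85 bp and Timm8b, itself a mitochondrial import chaperone, beside Sdhd at 98 bp. The 22 all had a shared promoter peak, as did 94.5% of all 1448 genes with such a partner. Their median signal was 4.15 and 4.84, compared with 3.88 and 4.53 over all genes with a partner and 3.78 and 4.29 in the 60 other members with values in both libraries. Peaks between such starts belong to both genes, so their signal cannot be assigned to the member alone. The tallest member, Ndufaf8, was among them, with Tepsin 197 bp away; Ndufaf4 was not.

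A shared footprint, one overlapping between the libraries, was present in the promoter of 80 of 92 members (87%), against a background of 55.4%. Among CpG-rich promoters the shares were closer, 97.3% in members and 92.1% in all genes. The member promoters with a shared peak held 343 shared footprints with a median merged width of 20 bp. Ndufs7, a core subunit gene of complex I, had the most, 11, followed by Uqcrh, Uqcrq, Atp5g1 and Ndufaf8 with 8 each. Where both libraries gave a promoter peak, members and all genes had the same median of 4 shared footprints. Ndufa13, Cox7a2l and Atp5d had a shared peak without a shared footprint.

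The positions of these footprints differed in profile. In the last 20 bp before the 5′ end 62.7% of member promoters with a shared peak had a shared footprint, and 43.6% of all such promoters. In members there was a further rise downstream: 45.8% at 40 to 59 bp and 44.6% at 60 to 79 bp after the start, against 27.7% and 25.4% overall. Between 20 and 39 bp the shares were 32.5% and 30.9%. Member peaks were also more often centred near the start, as given above. The part of peak position in this profile was not tested, and no profile was made for CpG-rich genes.

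**Figure D4:**
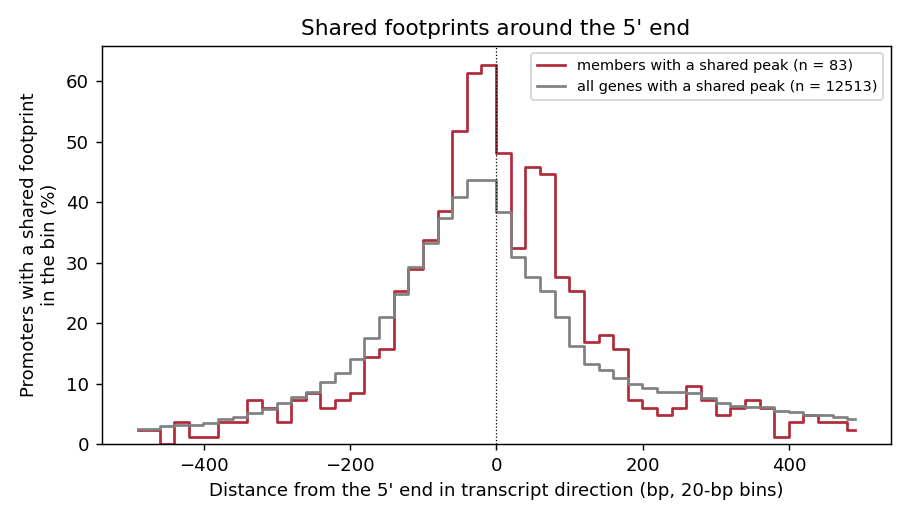
Percent of promoters with a shared peak that held a shared footprint (vertical axis) by distance from the 5′ end in 20-bp bins (horizontal axis, negative is upstream), for members (red) and all protein-coding genes (grey). Members peak at 62.7% just before the start and again at 45.8% and 44.6% between 40 and 79 bp after it, where all genes lie at 27.7% and 25.4%.

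Short consensus motifs were then searched on both strands within 500 bp of the 5′ end, and overlapping matches of a motif were joined into 1 place. A match is a description of letters and names no bound factor. The NRF1 motif GCGCANGCG was present in 26 members (28.3%), against 12.9% of all promoters and 24.2% of CpG-rich ones. It thus lay nearer the CpG-rich share. The YY1 motif AAGATGGC was in 22 members (23.9%), against 7.54% and 10.4%. The ERR motif TCAAGGTCA was in 9 members (9.78%), against 1.84% and 1.29%. The ETS motif CCGGAAG was in 30 members (32.6%), against 19.5% and 31.4%, and so lay near the CpG-rich share. An NRF1, ETS or YY1 match was found in 55 members (59.8%) and 32.9% of all genes, and NRF1 together with YY1 in 7.61% and 1.47%. These combinations were not counted among CpG-rich genes alone.

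The remaining motifs are given as shares of members, of all promoters and of CpG-rich promoters. The SP motif GGGCGG, which overlaps other GC-rich elements, was in 72.8%, 61.4% and 92.1%. The NF-Y motif CCAATNA was in 31.5%, 32.2% and 29.3%, and the E-box CACGTG in 16.3%, 17.3% and 22.7%. The cyclic AMP response element TGACGTCA was in 6.52%, 3.33% and 5.23%, which is 6 members. The ZNF143 motif CCCANNATG was in 18.5%, 14.3% and 12.8%. With a shared footprint on the match the shares were 7.61%, 1.61% and 2.82%. In Atp5h, Ndufaf8 and Uqcrh this footprinted match shared bases with a YY1 match. Of 10 ZNF143 places of members inside a shared peak, 30% had a base inside the footprints of both libraries. Over all genes 30.3% of 895 did. The TATA motif TATAAA was in 27.2%, 32.2% and 18.5%, so members lay below all promoters and above the CpG-rich ones.

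Matches differed in how often they were protected. Of 32 NRF1 places inside a shared peak in member promoters, 29 (90.6%) overlapped a shared footprint, and 74.7% of 2798 places did so over all genes. Requiring a base inside the footprints of both libraries left 27 of 32 (84.4%), against 72.3% over all genes. For YY1 the overlap was 9 of 19 places (47.4%), and 345 of 862 (40%) over all genes. With the stricter requirement the YY1 shares were about equal, 36.8% and 34.8%. For ETS the overlap was 10 of 28 (35.7%) against 38.3%, and the stricter shares were 32.1% and 30.8%. Neither of the 2 ERR places inside a shared peak, those of Sdhd and Atp5g3 printed above, overlapped a footprint, and over all genes 1 of 28 did. The other ERR places, in Atp5b, Atp5o, Cox6c, Ndufa2, Ndufaf5, Ndufb4 and Ndufv2, lay outside shared peaks. The number of ERR places in open DNA is too small to set members apart from other genes.

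The NRF1 places were spread over the complexes, with matches in 11 of 34 complex I genes, 2 of 8 assembly factor genes, 2 of 4 genes of complex II, 2 of 9 of complex III, 2 of 19 of complex IV and 7 of 17 of complex V. Footprinted NRF1 places of members also lay more often downstream: 17 of 29 (58.6%) began at or after the 5′ end, compared with 35.2% of 2179 over all genes. Between 30 and 79 bp after it, a span chosen after the footprint profile had been seen, lay 11 of 29 (37.9%) against 6.93%. Among them were Ndufs6 at 45 to 53, Ndufb10 at 53 to 61, Ndufa6 at 55 to 63, Cox6c at 58 to 66, Atp5c1 at 61 to 69 and Atp5o at 67 to 75. Ndufb4 and Sdha had footprinted NRF1 places on both sides of the start. Footprinted YY1 places were mostly downstream too, 7 of 10 in members and 67% over all genes, as in Sdhc at 22 to 29, Ndufb8 at 36 to 43 and Ndufc1 at 55 to 62. The gene Uqcrh had 2 upstream, at -342 to -335 and -296 to -289, on the side of its partner Lrrc41.

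**Figure D5:**
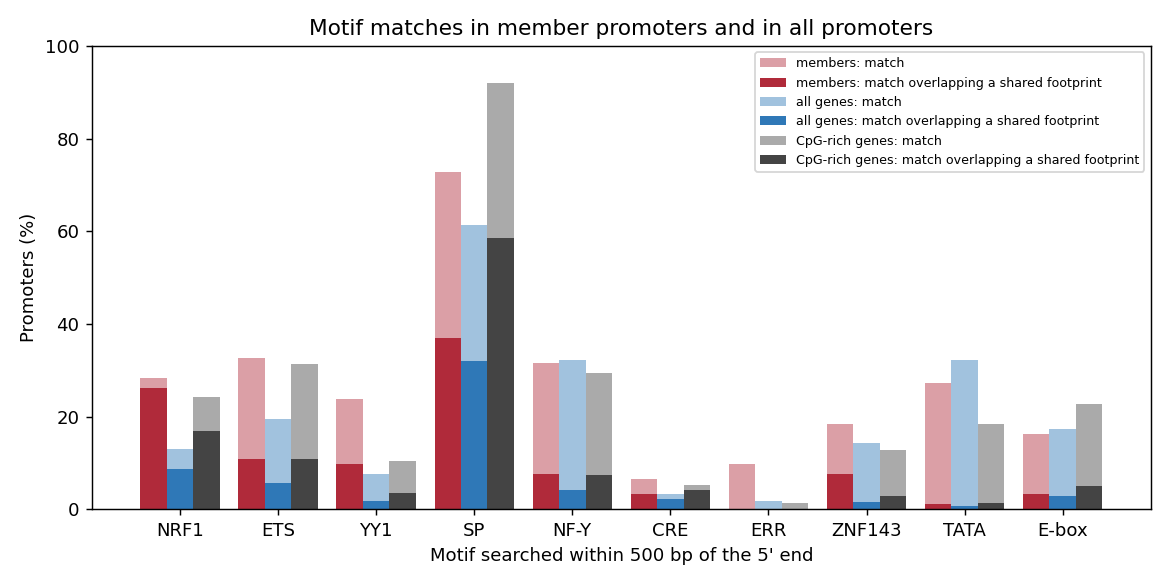
Percent of promoters (vertical axis) with a match to each motif (horizontal axis), in members (red), all protein-coding genes (blue) and genes with CpG-rich promoters (grey); the dark part of a bar is the share with a match that overlaps a shared footprint. For NRF1 26.1% of members had a footprinted match, against 8.62% of all genes and 16.8% of CpG-rich ones. For YY1 it was 9.78%, against 1.81% and 3.49%, whereas for ERR none of the members had one.

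Distal sites were about as common around members as around other genes. A distal peak is a shared peak centred more than 1 kb from every annotated start, counted within the gene body and 10 kb on either side. Of the 92 members 57 (62%) had at least 1, against a background of 59.9%, with a median of 1 in members and in all genes. Members are short, with a median length of 7.57 kb against 17.6 kb. Ranked among the 200 genes of closest locus length, the median member lay at percentile 57.4.

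The 8 loci with most distal peaks differed in where these lay. The long Atp5o entry had 10, of which 8 fell in its body and those in turn inside Cryzl1 or Itsn1; the short entry had 3. Atp5d had 7, at percentile 100 for its length, 4 of them upstream inside Stk11 or Cbarp and 1 in its own body with 1.96 and 1.75. Atp5l had 5 with signals up to 1.7 and 2.21. Atp5h had 4, the tallest 6551 bp downstream of its 5′ end at 3.69 and 3.54. Ndufb7 had 4 weak ones inside Tecr, and the 4 of Ndufaf2, between 0.36 and 1.26, all lay in its long gene body, at percentile 47 for its length.

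Ndufa4l2 (chr10:127514967-127517154) had the opposite layout to most members. It encodes a protein known to be induced in hypoxia and found in brain pericytes, and its promoter window held no peak. All 6 distal peaks lay upstream, at percentile 99 for its length. The tallest, centred at -1976, had 4.6 and 5.39; in complex IV only the promoters of Cox6c and Cox6a1 had a higher mean. The others, at -2786 to -6516, were lower, the next reaching 2.77 and 2.65. The pericyte and smooth muscle markers Rgs5 and Myh11 had promoter signals of 0.475 and 0.749, and of 0.654 and 0.605, while Acta2 had no peak and Pdgfrb had 0.764 in replicate 2 alone; the part of such cells in the Ndufa4l2 peaks was not tested.

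Other genes of the pathway gave like counts. Of 29 assembly genes for complexes II to V, 26 had a shared promoter peak, with medians of 3.84 and 4.41. All 12 genes of the tricarboxylic acid cycle did, with medians of 4.14 and 4.56. Of 15 genes for regulators, 13 did. Nrf1 itself had 4 and 5.3, Gabpa 2.72 and 3.15, Yy1 4.93 and 5.54, and Tfam, which encodes the packaging factor of mitochondrial DNA, 4.06 and 5.12. Esrra, the gene of an ERR, had 6.45 and 7.85, a mean exceeded among members by Ndufaf8 and Ndufaf4 alone. Ppargc1a had a peak of 0.384 in replicate 2 alone at its outermost 5′ end, and a shared peak at another annotated start.

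The tissue label was checked by markers. Of 14 marker genes of cortical cells 10 (71.4%) had a shared promoter peak, against 60.1% of all genes, so that count alone does not mark the tissue. Among them were Neurod2 at 2.1 and 1.9, Slc17a7 at 1.44 and 1.46 and Gfap at 1.8 and 2.23. Gad1 and the microglial genes Csf1r and Cx3cr1 had no peak at their outermost ends, and Cldn5 had 0.49 in replicate 2 alone. None of 4 liver or 4 male germ cell markers had a shared promoter peak, and 1 of 6 of striated muscle did, Actn2, at 1.63 and 1.53. At another annotated start Gad1, the germ cell gene Prm1 and the muscle gene Tnnt2 had a shared peak. The medians of those 10 cortical markers were 1.62 and 1.72, below the members' medians, although Camk2a at 2.7 and 3.31 was above some members.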

How the data were processed

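DNase-seq calls of 2 libraries were used. Per the labels, reads were aligned to mm10; no aligner, peak caller or footprint caller is named in the sources used here. The authors called peaks on each library alone (128323 and 119651 in the larger list). The deposited peak signal is the height of the cut density scaled to read depth; its step, read as 1 cut after scaling to 1 M, corresponds to 206 and 208 M cuts. The deposited footprint tables hold the false discovery rate of each call, a q-value, always 0.01, and those of the cut rate list q-values below 0.05. Alignment to the reference may lose reads of the CAST/EiJ copy.

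From these files overlapping intervals (1 bp or more) of the libraries were joined in Python, for peaks and for footprints, and genes came from GENCODE M21. Sequence came from RefSeq's GRCm38.p6, the same build. The member counts, medians and motif places are descriptions; no test was run, since there is 1 group. Code was tested on simulated data. Named genes were the 10 members with the tallest promoters, those without a shared peak (1 member is not reported here by name or value), the 8 with most distal peaks, the 5 with the largest ratio between libraries, the 5 with most footprints, isoform sets, the extremes of each complex, and the catalytic subunits; of other genes, only regulators and markers, and Acad9, Foxred1 and Tmem126b as examples, were named. Members named for motif places, partners, internal starts or near ties were chosen after their values were seen. The members, lists and motifs were chosen with earlier results of these data known. Windows, lists, overlaps and distances were varied. In 6 members over 10% of the 31-base words of the window occur elsewhere in the genome (Cox7a2l highest, 21.8%), so unique alignment is reduced there.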

Additional observations from a re-analysis of the deposited data

How the results depend on the processing

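Of 54 alternatives, 34 left the count within 1.5 times its value, or the median signal within the spread of the libraries. This tally does not measure how firm the results are. Counts from fewer genes were set against the count over all 92, and the motif alternatives could only lower a count. The spread came from the medians of the same 2 libraries, so leaving 1 library out could hardly exceed it. Windows of 250 bp or 1 kb, any annotated start, structural subunits alone, members without a divergent partner, the stricter peak list and an overlap of 50% of the shorter peak gave 61 to 85 members with a shared promoter peak, the lowest from the 70 members without a partner. The shares of all genes under these settings were 56.2% to 65.6%. With 1 library alone, the count was 84 by either library, beside 61.5% to 62.2% of all genes. The median signal was 3.85 to 4.53, and 2.77 to 3.03 over all genes. Members with a footprint numbered 83 to 84, beside 60.1% to 60.8% of all genes. A distal peak was found in 57 of 92 members by replicate 1 alone, beside 66.8% of all genes. By replicate 2 alone it was 63, beside 66.9%.

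The distal count depended on the locus: a flank of 50 kb gave 88 members (84.2% of all genes) and the gene body alone 20 (39.4%). A distance of 2.5 kb from every start gave 44 of 92 members (50.2% of all genes), and the stricter peak list 39 (46.4%). Fewer bases searched gave fewer motif matches: from 250 bp before to 50 bp after the start, with the share of all genes in brackets, NRF1 was in 17 of 92 members (8.16%), ETS in 17 (11%), YY1 in 9 (2.93%), SP in 40 (43.7%, about the members' own share), NF-Y in 19 (16.5%), ERR in 2 (0.49%), ZNF143 in 6 (4.77%), TATA in 12 (12.7%) and E-box in 8 (7.82%). Requiring a shared footprint on the match left ETS in 10 members (5.77%), YY1 in 9 (1.81%), SP in 34 (31.9%), NF-Y in 7 (4.17%), the cyclic AMP response element (CRE) in 3 (2.29%), ERR in 0 (0.00481%), ZNF143 in 7 (1.61%), TATA in 1 (0.735%) and E-box in 3 (2.79%).

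No paired comparison of conditions was possible because both libraries belong to 1 group. Any 2 genes were measured in the same libraries, so in places their order within each library is given. With 2 libraries a difference between 2 genes was read as clear only where their values do not overlap. Weak peaks are limited by depth and by the share of cuts in open DNA.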

Other observations

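Members on the X chromosome, left out by the rule, were Ndufb11 and Ndufa1 of complex I and Cox7b of complex IV. Each had a shared promoter peak, at 1.54 and 1.62 in Ndufb11, 1.93 and 2.66 in Ndufa1, and 1.02 and 1.34 in Cox7b. These lay below most autosomal members; the median over 423 X-linked genes with a shared peak was 1.39.

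Gene families used in all cells gave similar values. By symbol, 71 of 78 genes for cytosolic ribosomal proteins had a peak shared by the libraries, and their median was 3.9 in replicate 1 and 4.63 in replicate 2. For genes of the proteasome it was 42 of 49, with 3.48 and 3.88. The members' medians of 3.88 and 4.63 lay beside those of the ribosomal protein genes.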
